A study of Mus musculus with 4 samples.

Results

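Transcripts of mitochondrial and peroxisomal fatty acid oxidation were examined in small intestine from 2 HNF4 null and 2 control mice, all 1 month old. The set comprises 31 genes listed by symbol for their roles in carnitine transport, mitochondrial β-oxidation, electron transfer, ketone metabolism and peroxisomal β-oxidation, and 30 of them had a probe set that the platform annotation assigns to that gene alone, out of 12393 genes named in this way. Expression of the other member, Acsl1, which activates long-chain fatty acids, was not analysed here, and only its promoter was searched. Members were chosen with earlier results of these data known, so the set is described and not tested. Each animal gave 1 Affymetrix array of total RNA from small intestine. The null group was 1 male and 1 female of the genotype HNF4 loxP/- with villin cre. The female control was HNF4 loxP/+ with villin cre, and the male control was HNF4 loxP/- without Cre. Every animal therefore had a loxP allele, and 3 of the 4 carried a minus allele. The controls differ in sex, Cre and minus allele together, and these cannot be told apart. Villin-Cre acts in the intestinal epithelium, whereas the labels give neither the segment of the small intestine nor any separation of epithelium from muscle and lamina propria. They name HNF4 without saying which paralogue was targeted. Hnf4a probe signal was 1139 in the male and 1029 in the female null animal, and 733 and 1148 in the controls. Hnf4g was 346 and 442 against 311 and 393. Neither transcript had a lower mean in the animals labelled null, although Hnf4a was lower in the female null animal than in the female control. Which exons were deleted is not given in the sources used here, and these probes do not check the labels.

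Long-chain fatty acids are activated to CoA esters, carried into mitochondria as carnitine esters, and shortened by repeated cycles of dehydrogenation, hydration, a further dehydrogenation and thiolysis. Peroxisomes run a parallel cycle on very long, branched and dicarboxylic acids with their own enzymes and pass shortened products on as carnitine esters. In absorptive enterocytes both systems are active beside the export of dietary fat, and many of their genes are known targets of the nuclear receptor PPARα, which binds direct repeats of a short core sequence with a single base between them, as HNF4 does.

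Since HNF4 and PPARα both read such repeats, the 250 bases before the RefSeq gene start were taken from GRCm38.p6. A promoter was available for 26 members, namely Acsl1 and 25 of those with a probe set. Acaa2, Acat1, Crat, Decr1 and Hsd17b4 had none and were not searched. The full direct repeat, which is AGGTCA followed by any single base and AGGTCA again, was found on either strand in 0 of 26, beside 0.0407% of 27025 genes searched in the same way, and the HNF4 motif CAAAGTCCA in 0 of 26, beside 0.451%. The core AGGTCA alone, which is part of the full repeat, stood in 5 of 26, namely Acadm, Acadvl, Cpt1a, Echs1 and Scp2, beside 15.8% of all genes. With up to 2 letters of the repeat allowed to differ, an allowance chosen after the exact search, it was present in Echs1 and Etfa, 2 of 26 beside 3.72%. With 1 letter of the HNF4 motif allowed to differ, it was present in Acadm as CAAAGACCA, 1 of 26 beside 8.04%. These are matches of letters in a short window and say nothing on binding here or elsewhere. The first sequences shown are those of the member with the largest difference and another peroxisomal member with a lower value, neither with a match. Acadm follows, with the core and the approximate HNF4 motif in capitals. Echs1, 1 of the 2 members with an approximate repeat, has that repeat in capitals. The last is the window before Hadhb, which covers most of the stretch between the starts of Hadhb and Hadha. All run 5′ to 3′ along the gene named.
Acaa1b, chr9:119157094-119157343, minus strand: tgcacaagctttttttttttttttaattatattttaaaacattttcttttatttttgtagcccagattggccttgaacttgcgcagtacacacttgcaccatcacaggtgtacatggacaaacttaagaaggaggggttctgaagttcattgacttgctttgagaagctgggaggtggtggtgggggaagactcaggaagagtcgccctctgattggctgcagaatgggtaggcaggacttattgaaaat
Ehhadh, chr16:21787835-21788084, minus strand: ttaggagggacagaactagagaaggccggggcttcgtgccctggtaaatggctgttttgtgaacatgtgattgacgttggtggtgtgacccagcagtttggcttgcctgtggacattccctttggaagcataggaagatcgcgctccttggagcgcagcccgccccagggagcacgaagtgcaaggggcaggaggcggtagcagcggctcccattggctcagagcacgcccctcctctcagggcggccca
Acadm, chr3:153944644-153944893, minus strand: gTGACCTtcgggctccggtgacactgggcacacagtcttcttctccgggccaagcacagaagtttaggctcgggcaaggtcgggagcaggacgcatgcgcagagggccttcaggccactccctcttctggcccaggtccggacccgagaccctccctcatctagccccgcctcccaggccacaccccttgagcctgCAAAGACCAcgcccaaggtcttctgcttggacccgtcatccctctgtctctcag
Echs1, chr7:140116422-140116671, minus strand: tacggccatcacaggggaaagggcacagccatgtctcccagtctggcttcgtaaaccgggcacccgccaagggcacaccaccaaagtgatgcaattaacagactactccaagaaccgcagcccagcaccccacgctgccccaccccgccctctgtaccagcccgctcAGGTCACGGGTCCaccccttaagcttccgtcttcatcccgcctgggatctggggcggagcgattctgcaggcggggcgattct
Hadhb, chr5:30155003-30155252, plus strand: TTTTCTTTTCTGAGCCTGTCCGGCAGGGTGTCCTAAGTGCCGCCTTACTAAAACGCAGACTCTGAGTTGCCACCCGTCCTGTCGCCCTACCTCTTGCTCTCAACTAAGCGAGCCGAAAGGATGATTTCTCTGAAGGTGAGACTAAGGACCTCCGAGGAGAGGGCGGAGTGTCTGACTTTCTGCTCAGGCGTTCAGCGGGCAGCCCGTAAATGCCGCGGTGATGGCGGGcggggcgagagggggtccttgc
Hadha and Hadhb encode both subunits of the mitochondrial trifunctional protein and are transcribed away from each other, with 273 bases between the annotated starts. The capitals in the Hadhb sequence mark the 228 bases that also belong to the window before Hadha.

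Intensities below are those after quantile normalization between arrays. Male is given before female in each group. Differences are null minus control in log2(intensity + 16), with the standard error (SE) of limma's moderated fit over all 15838 probe sets tested and p adjusted over all of them. A gene is represented by its brightest probe set unless another is named. All 30 genes had such a probe set above the filter that removed the dimmest 30%. They had 51 probe sets in all, of which 50 were tested, the exception being a dim one for Acadl. Array medians of the deposited values were 43.2 to 53.3, correlations between arrays were 0.927 to 0.963, and the male null animal had the lowest median.

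Across the 30 genes the values in the null animals were mostly slightly below those of the controls, and on the log2(intensity + 16) scale 1 gene, Acaa1b, differed by more than 1.5-fold. With a pseudocount of 1, or without normalization between arrays, 4 did, namely Slc25a20, Ehhadh, Hsd17b4 and Acaa1b. With 1 animal left out the count was 4 when this was the male null or the male control, 3 for the female null and 2 for the female control, Acaa1b among them each time. The median difference was −0.16, from −1.34 to 0.12, beside a median of 0.00 over all 9546 genes tested. The shares of all genes given next describe the set and do not test it, since members were chosen with earlier results known. Of the 30, 25 had a difference below 0 (Acadl among them at 0.00 after rounding), where 49.7% of all genes did. Both the male pair and the female pair gave a negative difference for 19 of 30, where 24.2% of all genes had this, and the pairs had opposite signs for 10, where 51.8% of all genes had that. Both null animals were below both controls for 16 of 30, beside 15.2% of all genes. They were above both controls for 0 of 30, beside 1372 of the 9546 genes tested. Some of the 16 gaps were narrow. The highest null and lowest control values were 295 and 299 for Cpt1a, and 262 and 263 for Echs1. No member passed the threshold of 0.05 on adjusted p in limma, and 0.0126% of all probe sets did. Without adjustment 5 members had p under 0.05, all lower (Acaa1b, Hsd17b4, Slc25a20, Acaa2 and Ehhadh), where 1.75% of all genes were lower at that level. With sex as a block 1 member passed, Acaa1b, where 0.183% of probe sets did. That fit left 1 residual degree of freedom beside 9.75 from the variance prior, so its variances come mostly from other probe sets. The 95% interval reached a median of 0.46 to either side, and only 5 of the 30 intervals left out 0, so most single differences here are smaller than 2 animals per group can resolve. An exact permutation test of a single gene cannot go below p = 0.333 with these 4 animals. Since RNA of the whole tissue was measured, fewer cells that express a gene and less RNA per cell cannot be told apart.

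By animal, the median over the members relative to the control mean was −0.12 in the male and −0.25 in the female null animal, against 0.04 in the male and −0.04 in the female control. The female null animal was the lowest of the 4 for 15 genes and the male null animal for 12, while the female control was lowest for 3 and the male control for 0. The male control was the highest for 11 genes and the female control for 9, and each null animal for 5. Leaving out the male null or the female null gave 24 genes below 0 each, leaving out the female control 29 and leaving out the male control 23, with medians of −0.25, −0.12, −0.23 and −0.10. The size of the shift, which was −0.16 over all 4 animals, thus moved by more than 1.5 times without the male control or without the male null animal.

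**Figure D1:**
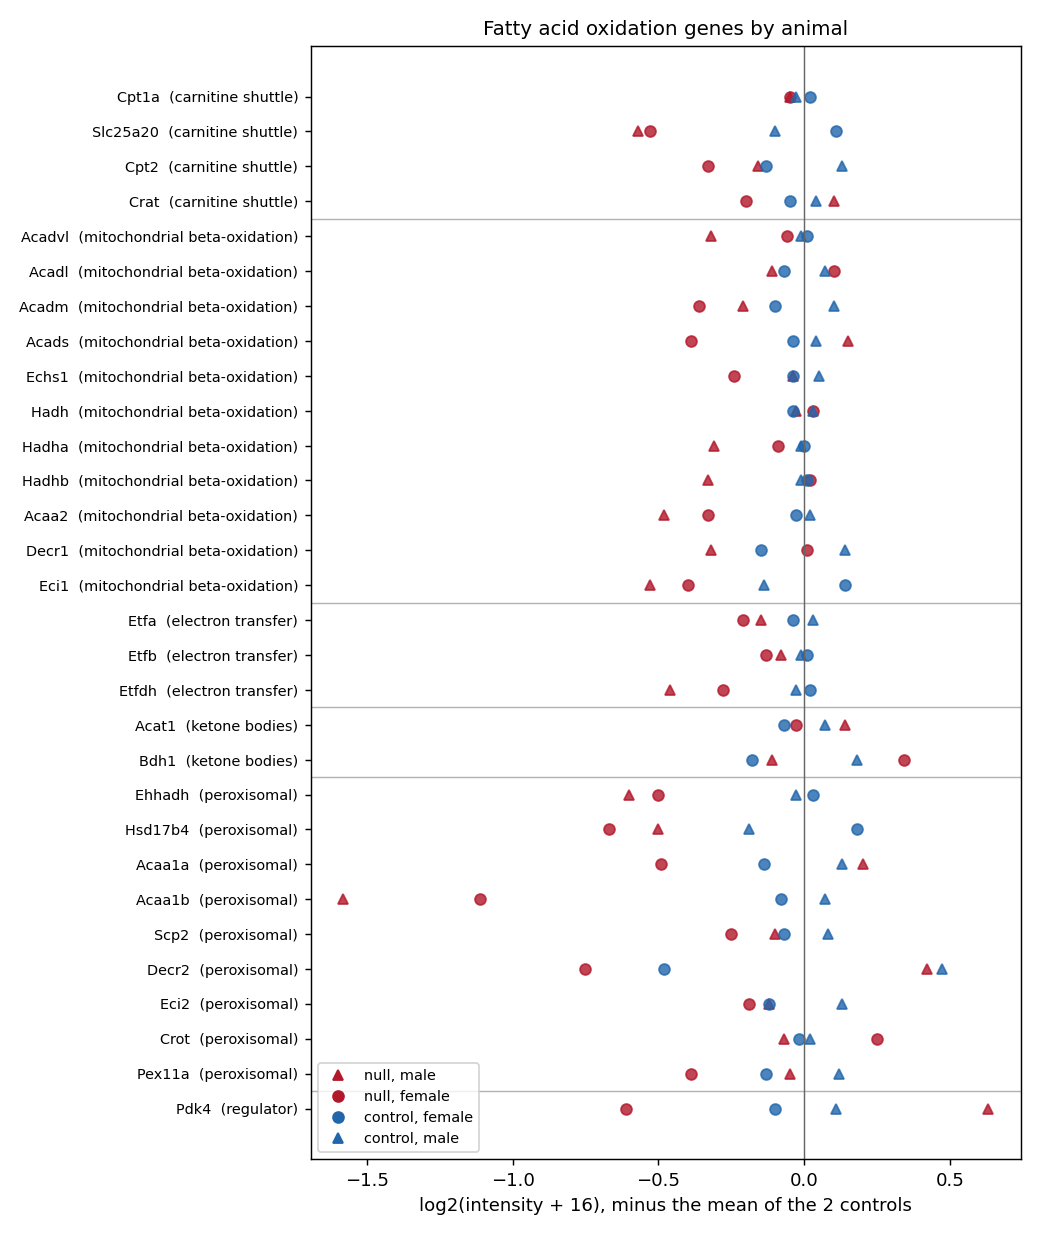
Value of each oxidation gene in each animal (brightest probe set, log2(intensity + 16) minus the mean of the 2 controls) on the horizontal axis, with genes in rows by step; red marks null and blue control, triangles male and circles female. Acaa1b stands far to the left in both null animals, whereas Hadh, Acadl and Cpt1a lie close to the controls and Pdk4 has its null animals at both ends.

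The carnitine shuttle was measured by 4 genes, all with differences below 0, where 49.7% of all genes were. Slc25a20, the carrier that exchanges acylcarnitine for carnitine across the inner membrane, was the one with the largest difference. Its intensity was 236 and 243 in null tissue, with 333 and 389 in the controls. The groups did not overlap, and the difference was −0.56 (SE 0.19, 95% interval −1.01 to −0.11, unadjusted p = 0.0223, adjusted p = 1 in limma). Its second probe set gave −0.46, with 201 and 169 against 255 and 261. Cpt1a, the outer membrane acyltransferase that controls entry, read 295 and 294 against 299 and 311. That is −0.05 (SE 0.18, 95% interval −0.47 to 0.38), and its other probe sets, at −0.04 each, had overlapping groups. Cpt2, which turns the carnitine ester back into a CoA ester inside, read 283 and 251 against 352 and 291, a difference of −0.25 (SE 0.20) that was also −0.25 on its other probe set. Crat, the acetyltransferase for short chains, was at −0.05 with overlapping groups.

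In the mitochondrial cycle 10 of 11 genes had differences below 0 and 6 had both null animals below both controls, with a median of −0.15. Of all genes, 49.7% were below 0 and 15.2% had both null animals below both controls. The acyl-CoA dehydrogenases, which take the first step and divide the chain lengths among them, ranged from −0.29 to 0.00. Acadm, the medium-chain enzyme, had 661 and 591 in the null animals and 824 and 713 in the controls. Its groups were separate and it differed by −0.29 (SE 0.16, 95% interval −0.68 to 0.10). The very long-chain enzyme gene Acadvl was at −0.19 and also separate, with 656 and 786 against 813 and 825. Acads, for short chains, was at −0.11 and Acadl, for long chains, at 0.00, both with overlapping groups.

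For the middle steps, the trifunctional protein subunits differed by −0.20 for Hadha (SE 0.15) and −0.15 for Hadhb (SE 0.16). Hadha, which holds hydratase and dehydrogenase activity, read 657 and 766 against 812 and 818, and its groups were separate. Hadhb, the thiolase subunit whose promoter window is shared with Hadha, read 1023 and 1306 against 1279 and 1298. Here the male null animal was lower and the female null animal was level with the controls. The second Hadhb probe set gave 0.02. Hadh, the short-chain hydroxyacyl-CoA dehydrogenase, read 4630 and 4836 against 4836 and 4592, a difference of 0.01 (SE 0.08). Its interval of −0.19 to 0.20 was the narrowest among the members, and its other probe sets were at 0.12 and −0.07. The enoyl-CoA hydratase gene Echs1, whose sequence with the approximate repeat is printed above, was at −0.15 with 262 and 226 against 279 and 263.

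The mitochondrial thiolase Acaa2 was lower on each of its 3 probe sets, at −0.40, −0.32 and −0.61. The brightest gave 976 and 1083 in the null animals and 1384 and 1335 in the controls. The groups were well apart (SE 0.13, 95% interval −0.71 to −0.08, unadjusted p = 0.0215, adjusted p = 1 in limma). Eci1, an isomerase that lets unsaturated acids enter the cycle, read 230 and 253 against 305 and 374. It differed by −0.46 (SE 0.20, 95% interval −0.93 to 0.01). Decr1, the dienoyl-CoA reductase that also serves unsaturated acids, was at −0.15 with opposite directions in the sexes, −0.46 in males and 0.15 in females.

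The 3 genes that pass electrons from the acyl-CoA dehydrogenases to ubiquinone all had both null animals below both controls, beside 15.2% of all genes. Etfdh, the membrane oxidoreductase, read 331 and 379 against 452 and 470, which is −0.36 (SE 0.17, 95% interval −0.78 to 0.05). The flavoprotein subunits were nearer to the controls. Etfa was at −0.18 (SE 0.14), with 838 and 807 against 956 and 910, and Etfb at −0.10 (SE 0.13), with 1016 and 982 against 1066 and 1081. None of them passed in limma (adjusted p = 1).

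The 2 genes of ketone metabolism and Pdk4 had differences just above 0 on their brightest probe sets, with intervals that include both 0 and the median of the members. Averaged over all tested probe sets of the gene, Acat1 was at −0.09 and Bdh1 at −0.25. Acat1, the acetoacetyl-CoA thiolase, was at 0.05 on its brightest probe set, with 717 and 635 against 684 and 621, and at −0.03 and −0.30 on the others. Bdh1, which interconverts acetoacetate and hydroxybutyrate, was at 0.12 (95% interval −0.43 to 0.67), with 380 and 527 against 467 and 360, and at −0.62 on a dimmer probe set. Pdk4, the kinase that turns off pyruvate dehydrogenase when fat is burned, read 354 and 140 in the null animals and 241 and 206 in the controls. The null animals thus held both the highest and the lowest value, and the difference of 0.01 (SE 0.39, 95% interval −0.93 to 0.95) sets no close limit.

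Among 9 peroxisomal genes, 8 had differences below 0, where 49.7% of all genes did. Their median was −0.18, beside −0.15 for the 21 other members. Both null animals were below both controls for 4 of the 9, beside 15.2% of all genes. Those 4 were Acaa1b, Ehhadh, Hsd17b4 and Scp2. Acaa1b, one of the peroxisomal thiolases that cleave the final intermediate, read 146 and 209 in the null animals and 494 and 441 in the controls. Every null value was less than every control value by a wide margin, and the difference was −1.34 (SE 0.22, 95% interval −1.87 to −0.80), 2.53-fold on this scale. It was −1.65 in the male and −1.02 in the female pair. The unadjusted p was 0.000689 and the adjusted p 1 in limma. Adding sex as a block gave an adjusted p of 0.0372 in limma, and over the remaining alternatives it ranged from 0.116 to 1.

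Acaa1a, a close copy of the thiolase gene, did not show such a gap. Its brighter probe set read 131 and 75 against 125 and 100, which is −0.14 (SE 0.29), and its dimmer one was at −0.33. Both Acaa1a probe sets are of the type the array maker marks as able to match other transcripts (_x_at). How far each signal belongs to one of them is uncertain.

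Ehhadh, the bifunctional enzyme of the classical, PPARα-induced peroxisomal cycle, read 102 and 110 against 159 and 166. The null values lay together below the controls, with a difference of −0.55 (SE 0.20, 95% interval −1.04 to −0.06, unadjusted p = 0.0322, adjusted p = 1 in limma). Hsd17b4, its counterpart for branched-chain acids, read 432 and 383 against 542 and 703. Its difference was −0.58 (SE 0.19, 95% interval −1.05 to −0.12) and −0.59 on a second probe set, and in each case the female pair, at −0.85 and −0.92, was further apart than the male pair, at −0.32 and −0.25.

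Scp2 encodes a peroxisomal thiolase of branched-chain oxidation and, from another start, a short lipid carrier protein. Its 4 probe sets were all lower, and by unequal amounts. The brighter ones differed by −0.18 (SE 0.11), with 2561 and 2300 against 2902 and 2604, and by −0.21. The dimmer ones differed by −0.53 (SE 0.20), with 106 and 109 against 158 and 167, and by −0.63 (SE 0.21), with 104 and 92.1 against 171 and 151. Both dimmer probe sets had separate groups with almost equal gaps in the sexes, −0.52 and −0.55 for the first and −0.64 and −0.63 for the second. Which Scp2 transcript each probe set reads was not analysed here, and the difference between probe sets was not tested.

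The accessory peroxisomal genes had groups that overlapped. Pex11a, which promotes peroxisome division, was at −0.21 (SE 0.21), with 315 and 246 against 357 and 297. Eci2, an isomerase, was at −0.16, and Crot, the octanoyltransferase that exports medium chains, was at 0.09. Decr2, the peroxisomal dienoyl-CoA reductase, read 208 and 83.8 against 217 and 105. Both males were well above both females, so its SE of 0.46 over the 4 animals fell to 0.22 with sex as a block, where the difference was still −0.16.

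**Figure D2:**
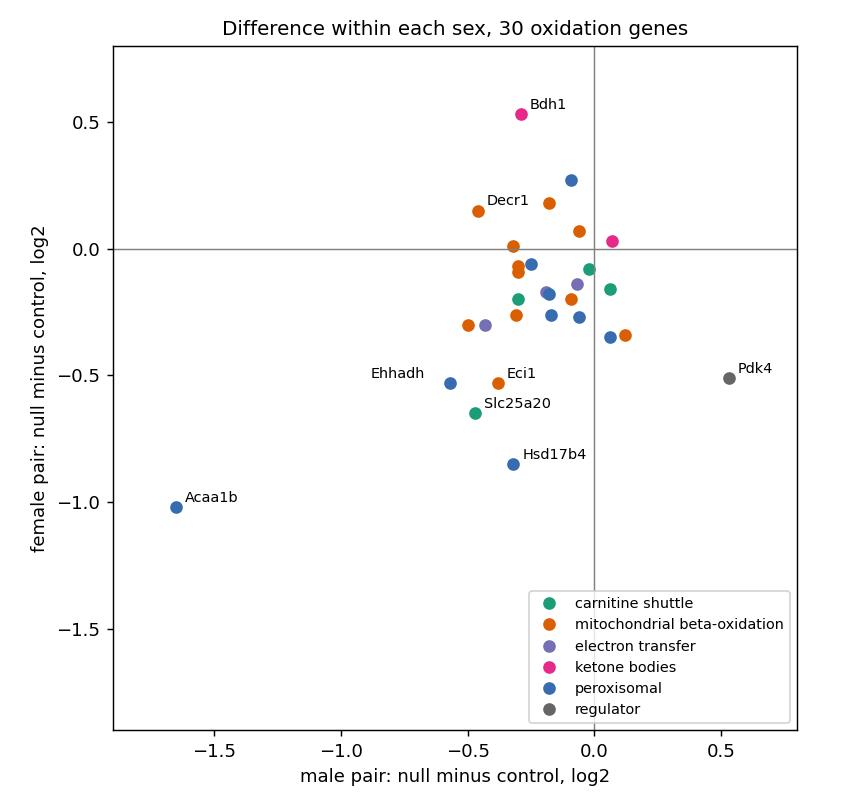
Each of the 30 genes by its difference in the male pair (horizontal, null minus control) and in the female pair (vertical, null minus control), on the log2 scale and coloured by step. The 19 genes at the lower left were lower in both pairs, with Acaa1b at −1.65 and −1.02, and Pdk4 and Bdh1 lie where the pairs have opposite signs.

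Probe sets of one gene read the same RNA at different places and are not separate animals. Of the 15 members with more than 1 probe set, 10 had all tested probe sets below 0, and 4, Acat1, Bdh1, Hadh and Hadhb, had both signs. The remaining one, Acadl, had only 1 tested. Probe sets of the _x_at type include the brightest of Hadh and Acaa1a and dimmer ones of Cpt1a, Cpt2, Hadhb and Hsd17b4. Over all 50 tested probe sets 43 were below 0, beside 52.2% of all probe sets tested, and 29 had both null animals below both controls, beside 16.3%.

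**Figure D3:**
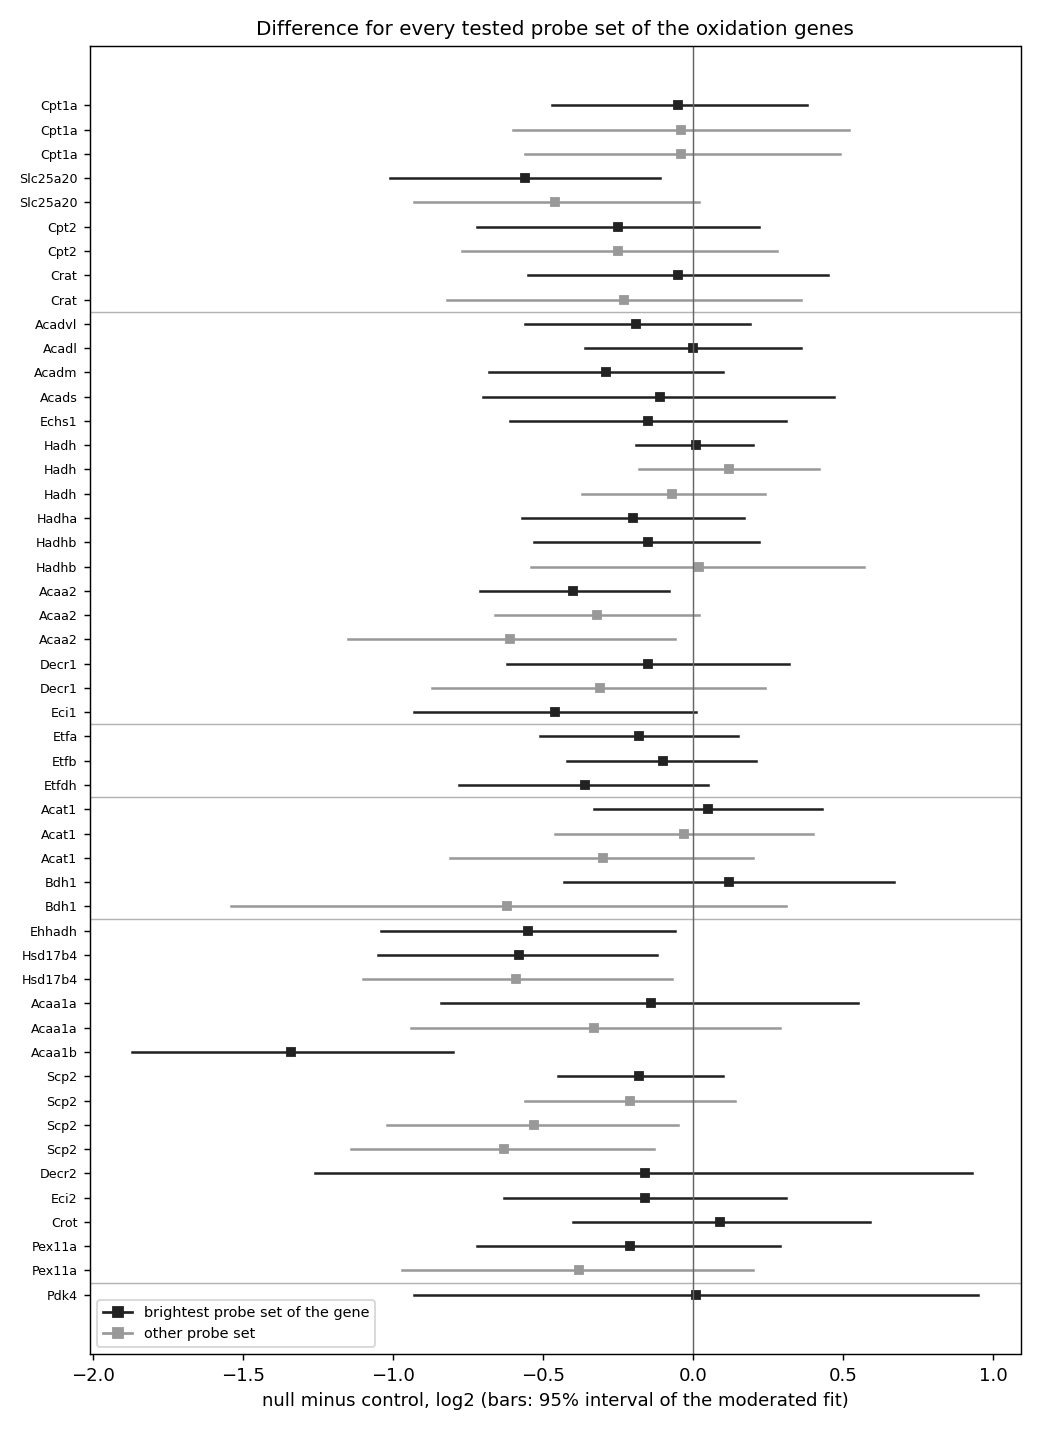
Null minus control difference in log2 for each of the 50 tested probe sets, with 95% intervals of the moderated fit; black marks the brightest probe set of a gene and grey the others, and lines divide the steps. The probe sets of Slc25a20, Acaa2, Hsd17b4 and Scp2 all lie below 0, and Acaa1b is the furthest from it.

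Other genes of the pathway gave a like picture of small differences with no member past the threshold. Of 38 further tested genes in the list of other fatty acid and ketone oxidation, 26 were below 0 and 12 above, with a median of −0.13. The list also holds genes of amino acid breakdown, such as Hibch and Ivd. Of all genes tested, 49.7% were below 0. No gene of this list passed in limma after adjustment or with sex as a block. Without adjustment 4 lower ones and 1 higher one had p under 0.05 in limma, where 167 lower and 139 higher of 9546 genes did. Those with the largest differences of one sign in both pairs were Hibch, an enzyme of valine breakdown, at −0.77 (SE 0.31), the acetyl-CoA thioesterase gene Acot12 at −0.65 (SE 0.24) and the fatty acid transporter Slc27a4 at −0.60 (SE 0.18). Among peroxisomal genes of this list, chosen here after their values were seen, the acyl-CoA importer Abcd3 was at −0.41. The branched-chain oxidase Acox2 was at −0.54 on a dim probe set, with values from 28 to 53.2. Others did not share this, such as Phyh at −0.20 and Acot8 at −0.12, with overlapping groups. Nudt19 was at 0.30, with both null animals above both controls. Eci3, an isomerase closely related to Eci2, was at 0.50 with both null animals above both controls.

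Of 13 genes in the peroxisome biogenesis list 10 were below 0, with a median of −0.22. The list also holds catalase and the membrane proteins Pxmp2 and Pxmp4. None was past the threshold in limma after adjustment, with sex as a block, or without adjustment. Beside the lists in this paragraph, 49.7% of all genes were below 0 and 1.75% were lower at unadjusted p under 0.05 in limma. The largest differences of one sign in both pairs were Pxmp4, a membrane protein, at −0.41 (SE 0.25), catalase, Cat, at −0.39 (SE 0.18) and Pex7, the receptor that imports the thiolases, at −0.35 (SE 0.23). Of 17 known PPARα targets outside oxidation 12 were below 0, with a median of −0.18, and again none passed after adjustment or with sex as a block in limma. Malic enzyme, Me1, was at −0.63 (SE 0.21), glycerol-3-phosphate dehydrogenase, Gpd1, at −0.46 (SE 0.12) and pantetheinase, Vnn1, at −0.43 (SE 0.34), and 3 of the 17 were lower without adjustment at p under 0.05. The Cyp4a genes measured, Cyp4a12a, Cyp4a14 and Cyp4a31, lay below the filter. Among 17 regulators the median was −0.12, with 13 below 0 and none past the threshold in either fit, and 2 were lower without adjustment. Ppara itself read 166 and 90.2 against 232 and 171, a difference of −0.63 (SE 0.31, adjusted p = 1 in limma) with separate groups. The pyruvate dehydrogenase kinases Pdk2 and Pdk3 were at −0.65 (SE 0.26) and −0.60 (SE 0.22).

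Markers of the cell types in the tissue were read in the same animals. No marker gene passed the threshold in limma after adjustment or with sex as a block, and the lists are given by their counts and medians. Of all genes tested, 49.7% were below 0. Epithelial markers had a median of −0.12 over 13 genes, with 9 below 0, and enterocyte brush border and lipid transport markers one of −0.14 over 11 genes, with 8 below 0. Both null animals were below both controls for 6 of the 13 and 4 of the 11, beside 15.2% of all genes, and above both for 2 and 1. Both pairs were lower for 7 of the 13 and 7 of the 11, beside 24.2%. Such separation was thus not particular to the oxidation genes. Summed intensities of the enterocyte list were 25968 and 25179 in the null animals and 26666 and 26514 in the controls, and those of the epithelial list were 26061 and 24752 against 26873 and 29333. Goblet cell markers were above 0 for 7 of 7, at a median of 0.50 and summed intensities of 22689 and 21578 against 17772 and 17443. T cell and intraepithelial lymphocyte markers were below 0 for 8 of 8 tested, at a median of −0.43 and sums of 1081 and 804 against 1442 and 1395, with Cd3e and Cd8b1 below the filter. Smooth muscle markers were above 0 for 9 of 10 over all animals, but at −0.16 in the male and 0.68 in the female pair, with sums of 3010 and 4046 against 3041 and 2873. Of 7 adipocyte genes measured, Adipoq, Lep, Cidea and Ucp1 lay below the filter. The remaining 3 had a median of 0.30, and their summed intensity was higher in both null animals, at up to 312, than in the controls, at up to 262. Fibroblast markers were above 0 for 5 of 7, with a median of 0.18, but at −0.38 in the male and 0.56 in the female pair. B cell and plasma cell markers were above 0 for 3 of 5, with a median of 0.31, and at 0.87 in the male and 0.03 in the female pair. The 2 erythroid markers tested were above 0, at a median of 0.20. The part of these lists in the lower values of the oxidation genes was not tested. The oxidation genes had medians of −0.22 in the male and −0.19 in the female pair.

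**Figure D4:**
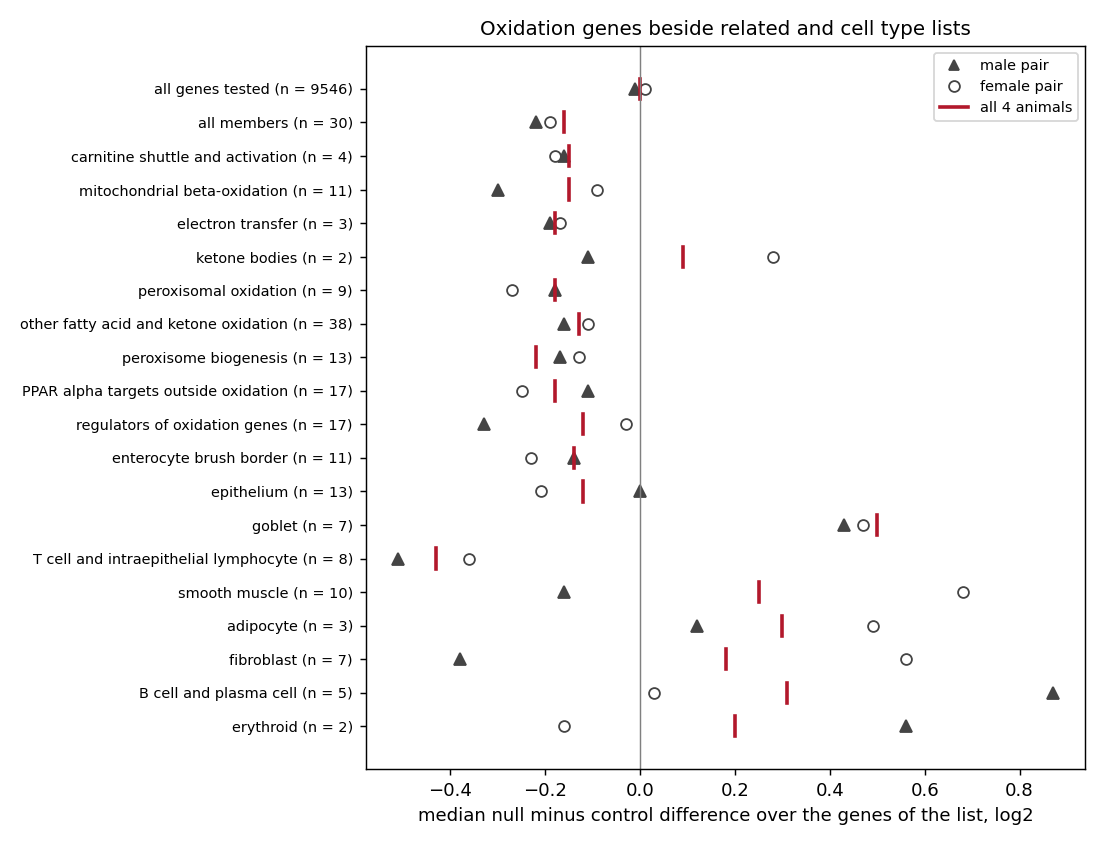
Median null minus control difference in log2 over the tested genes of each list, for all 4 animals (red bar), the male pair (triangle) and the female pair (open circle), with the number of genes in brackets. The median of the oxidation members is −0.16, between the epithelial list at −0.12 and the peroxisome biogenesis list at −0.22, and the smooth muscle and fibroblast lists split by pair.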

How the data were processed

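Total RNA from 4 intestines was labelled with biotin and hybridised by the manufacturer's procedure, per the labels' protocols. The deposited table holds 1 linear intensity per probe set and array. How the authors summarised, background-corrected or scaled these intensities is not given in the sources used here, and there are no detection calls. The 64 control probe sets were left out, which leaves 22626. Of these, 20380 have 1 gene in the platform annotation, 691 have several and 1555 have none. No symbol needed an update against GRCm38.p6, and the identifier was not matched for 29 probe sets. The medians of the arrays on the log2(intensity + 16) scale lay 0.23 apart, more than the 0.2 allowed, and quantile normalization was therefore applied. Values under 0 were set to 0 and 16 was added before log2, which understates changes of dim probe sets. The dimmest 30% by mean were removed. The comparison of the groups used limma 3.58.1 under R 4.3.3 (lmFit, eBayes with trend, 2 residual degrees of freedom, two-sided, Benjamini-Hochberg over 15838 probe sets, threshold 0.05). A run on simulated arrays required only that median estimates lie near the changes added. Its noise was independent between arrays and probe sets, so it does not test the error rate of the calls in these data.

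Genes were represented by the probe set with the highest mean. Values per animal were given for the 10 members with the largest differences and for a set named for their step, and of each other pathway list the 3 genes with the largest differences of one sign in both pairs were named. Members and lists were chosen with earlier results of these data known. Alternatives were the pseudocount, scaling, filter, prior trend, sex as a block, averaging of probe sets and leaving out each animal. The labels name 4 separate animals, and their number limits the precision. Promoter sequences are from RefSeq, GRCm38.p6, with the start as annotated. Proteins were not analysed here.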

Additional observations from a re-analysis of the deposited data

Results flagged for a closer look

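For 10 of the 30 oxidation genes the male pair and the female pair differed in opposite directions, beside 51.8% of all genes tested. With 1 pair per sex these differences between the sexes were not tested. Male minus female, the contrast of the pairs on the log2 scale was 1.03 for Pdk4 (0.53 in males, −0.51 in females), −0.82 for Bdh1 (−0.29 and 0.53) and −0.61 for Decr1 (−0.46 and 0.15). It was 0.46 for Acads, 0.42 for Acaa1a and 0.22 for Crat, which were higher in the male and lower in the female null animal. It was −0.36 for Crot, −0.35 for Acadl, −0.33 for Hadhb and −0.14 for Hadh, which went the other way. The controls also differ in Cre and in the minus allele, and the animal numbers in the labels go with sex. None of these can be told apart from sex.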

How the results depend on the processing

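Probe sets past the threshold numbered 2 with either other pseudocount, either other scaling or no filter, 29 with sex as a block, 1 with no intensity trend in the variance prior, and 0 to 35 when 1 animal was left out. The median over the oxidation genes was −0.16 and ranged from −0.20 to −0.14 over the alternatives that kept all 4 animals, and from −0.25 to −0.10 with 1 animal left out. Members past the threshold numbered 0 in every setting but sex as a block, where it was 1 (Acaa1b). Of 344 single-gene values under an alternative, 21 from 11 genes changed sign, none of them past the threshold. They were 0.03 for Acadl with median scaling, −0.01 for Pdk4 without further normalization, and −0.09 for Acat1 and −0.25 for Bdh1 when probe sets were averaged. With 1 animal left out the ranges were −0.20 to 0.10 for Crat, −0.10 to 0.10 for Acadl, −0.38 to 0.16 for Acads, −0.03 to 0.04 for Hadh, −0.34 to 0.02 for Hadhb, −0.04 to 0.14 for Acat1, −0.11 to 0.34 for Bdh1, −0.49 to 0.20 for Acaa1a, −0.74 to 0.42 for Decr2, −0.07 to 0.25 for Crot and −0.61 to 0.64 for Pdk4. The cause was not tested. The labels pair no animals by number. Sex as a block, with 1 male and 1 female in each group, was the paired fit. Median scaling and no further normalization gave medians over all genes of 0.01 and −0.04. Without detection calls or probe-level signal, the limit of dim probe sets is unknown.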
